A study of Mus musculus with 14 samples.

Results

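The 9 genes described here, Syt1, Dlgap1, Dab1, Ralyl, Dmd, Mybpc1, Pax2, Cobl and Lmo7, are known from neurons, muscle or developing epithelia and were picked because their transcripts had been seen in cells of expanded B cell clones. They were matched by symbol among 32285 genes in the single-cell RNA matrices of 7 tumour nodules. Because the genes were picked for their level in these clones, the levels below are a description and carry no test.

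The nodules came from Eif3e fl/fl Cγ1Cre mice carrying a Rosa26-YFP LSL reporter (cKO), in which Cre is driven from the immunoglobulin γ1 constant region gene in activated B cells to delete Eif3e, a subunit of a translation initiation factor. B cell receptor contigs were sequenced beside the RNA in nodules of mouse 27 (liver, 12 months), mouse 29 (lung, 12 months), mouse 31 (spleen, 13 months), mouse 33 (thymus, 16 months) and mouse 34 (lung and thymus, 9 months), and T cell receptor contigs in nodules of mouse 30 (liver, 14 months) and mouse 32 (spleen, 12 months). The nodule of mouse 27 was a secondary tumour grown from that mouse's primary nodule in a Rag2-/- host, which makes no mature B or T cells of its own; its library held 574 T-like cells. Each mouse gave 1 nodule and 1 RNA library, all 7 mice were cKO, and tissue, age and clone differ between mice together, so they cannot be told apart.

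Syt1 is the calcium sensor of synaptic vesicle fusion, Dlgap1 a scaffold under the postsynaptic membrane, and Dab1 the adaptor that relays reelin signals during neuronal migration. Dystrophin, the product of Dmd, ties the actin cytoskeleton of muscle to its membrane, and Mybpc1 is a myosin-binding protein of the sarcomere. Pax2 is a transcription factor of kidney and urogenital development from the same family as Pax5, which holds B cells in their lineage.

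The libraries held 77442 cells, of which 75503 passed the filters, with 19264039 to 123456962 unique molecular identifiers (UMIs) per library. A clone was taken as all cells carrying the commonest heavy chain of a nodule or its commonest light partner (beta and alpha chains for T cells). Chains were matched exactly by V gene, J gene and junction bases. A cell with contigs that match neither chain exactly counts below as having another receptor. The 5 B clones of mice 27, 29, 31, 33 and 34 held 1782, 323, 3974, 1084 and 1416 cells, and the T clones of mice 30 and 32 held 2107 and 4868. Median depth was 9367 to 13763 UMIs per cell in the B clones but 1992 and 3805 in the T clones. At least 7 of 8 B cell markers were found in 10% or more of the cells of every B clone. Eif3e ran from 142.4 to 242.9 CPM (the UMIs of a gene scaled to a common library total) over the 7 clones. A count over the whole gene does not show whether its floxed part is present. The paper reports no YFP in the B and CD4+ T cells of its primary and secondary tumours, and normal eIF3e protein. It proposes that lymphocytes still holding eIF3e became malignant, so the clones are not to be taken as Eif3e-deleted cells. Any pair of libraries shared 96 to 286 cell barcodes, and 8.46% of clone cells had a barcode found in another library. Without those cells the 21 levels of a gene in a clone where it was present were 0.931 to 1.04 times those given below.

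The clones are identified by the junction of their heavy chain, the stretch where the V, D and J segments were joined. The junctions are shown as assembled from the receptor contigs, 5′ to 3′ on the coding strand, because levels of the genes are given per junction further on, and capitals mark bases that differ from the leading junction of the same mouse.
Mouse 27, leading junction (IGHV1-75, IGHJ1): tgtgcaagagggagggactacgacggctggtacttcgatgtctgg
Mouse 27, second junction: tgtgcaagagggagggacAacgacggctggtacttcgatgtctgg
Mouse 29 (IGHV1-85, IGHJ3): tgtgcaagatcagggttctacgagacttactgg
Mouse 31 (IGHV1-18, IGHJ4): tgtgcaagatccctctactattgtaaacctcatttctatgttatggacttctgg
Mouse 33, 42-base junction (IGHV9-3, IGHJ3): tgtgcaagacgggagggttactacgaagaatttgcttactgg
Mouse 33, 39-base junction (IGHV9-3, IGHJ3): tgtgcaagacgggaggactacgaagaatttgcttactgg
Mouse 34, leading junction (IGHV9-1, IGHJ2): tgtactagagaggatgactattgg
Mouse 34, second junction: tgtactagagaAgTtgCctattgg
Mouse 34, the third junction: tgtactagagaggTtgactattgg

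Each B clone held its own combination of the 9 genes. A gene was counted as present in a clone where at least 10% of its cells held a UMI. By that measure the clone of mouse 31 held 7 (Syt1, Dlgap1, Dab1, Ralyl, Dmd, Mybpc1 and Lmo7), where 30.2% of all 25095 genes pass, and the clone of mouse 33 held 4 (Pax2, Cobl, Lmo7 and Syt1), where 31.9% pass. Mouse 27 held Dmd, Mybpc1 and Lmo7 (29.8% of all genes pass), mouse 29 Ralyl, Dmd and Lmo7 (30.2%), and mouse 34 Lmo7, Cobl and Dab1 (31.7%). The T clone of mouse 30 held Cobl (15.2%) and that of mouse 32 held none of the 9 (24.1%). Since the genes were chosen from these clones, nothing is read from these counts against the background.

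**Figure D1:**
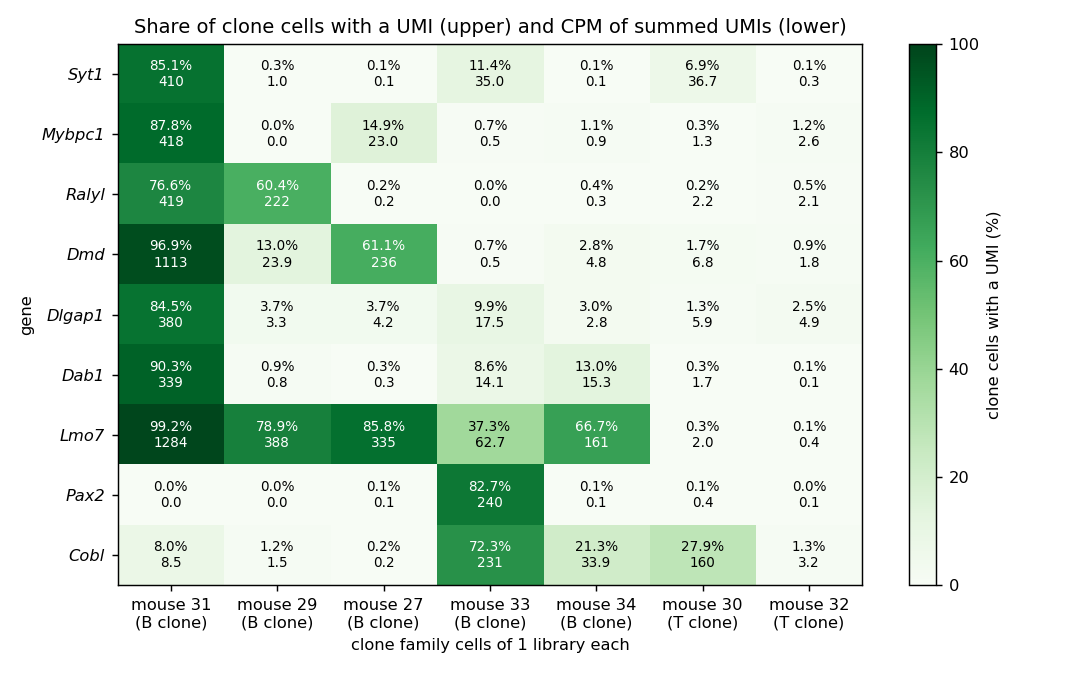
Share of clone cells holding at least 1 UMI of each gene (colour and upper number, percent) and its level in CPM of the summed UMIs (lower number), for the 5 B clones and 2 T clones. Mouse 31 holds 7 genes in 76.6% to 99.2% of its cells, mouse 33 holds Pax2 and Cobl in 82.7% and 72.3%, and Lmo7 passes 10% in all 5 B clones.

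Syt1 reached 409.6 CPM in the clone of mouse 31 (95% exact Poisson interval 403.9 to 415.4), and the clones of mice 33, 29, 34 and 27 held 35.0, 1.03, 0.115 and 0.0550 CPM, with 36.7 CPM in the T clone of mouse 30 and 0.253 in that of mouse 32. The intervals and floors here cover counting error only. In mouse 31 a UMI of this vesicle gene was found in 85.1% of clone cells (exact binomial interval 83.9% to 86.1%), against 1 UMI among 1782 cells of mouse 27. In mouse 33 only 11.4% of cells held Syt1, although a cell could hold up to 45 UMIs. An even spread of the same UMIs over cells of these depths would have reached 39.5% of them. The level in mouse 33 moved to 56.1 CPM, 1.60 times higher, when the clone was taken as the most frequent clonotype called by the authors.

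Dlgap1, the postsynaptic scaffold gene, was found at 379.6 CPM in mouse 31 and in 84.5% of its clone cells. The other B clones held 17.5 CPM (mouse 33), 4.24 (mouse 27), 3.33 (mouse 29) and 2.82 (mouse 34), and the T clones 5.90 (mouse 30) and 4.87 (mouse 32). Mouse 31 thus stood 21.7-fold above the next clone, and the 9.87% of cells in mouse 33 lay just under the 10% mark.

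Dab1, the reelin adaptor, reached 339.2 CPM in mouse 31 (90.3% of cells). Mice 34 and 33 followed with 15.3 and 14.1 CPM (13.0% and 8.58% of cells). It was at 0.770 and 0.330 CPM in mice 29 and 27, and at 1.66 and 0.144 in the T clones of mice 30 and 32. Its spread over the cells of mouse 31 was close to even, since 94.8% would hold a UMI if the counts were shared evenly by depth. For Ralyl in the same cells the observed share was 76.6% against 96.8%.

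Ralyl encodes an RNA-binding protein related to the spliceosome component Raly and is known mainly from brain. It was shared by 2 clones, at 419.3 CPM in mouse 31 and 221.9 in mouse 29 (76.6% and 60.4% of cells). The remaining B clones were at 0.287 CPM (mouse 34), 0.165 (mouse 27) and 0 (mouse 33), and the T clones at 2.21 (mouse 30) and 2.09 (mouse 32). The 0 of 1084 cells in mouse 33 allows a share of up to 0.277%.

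Dmd, which encodes dystrophin, was at 1113, 236.3, 23.9, 4.83 and 0.482 CPM in the clones of mice 31, 27, 29, 34 and 33, found in 96.9%, 61.1% and 13.0% of cells in the first 3 of these. The T clones held 6.82 CPM (mouse 30) and 1.80 (mouse 32). Mybpc1, the sarcomeric gene, followed the same order at the top, with 417.5 CPM in mouse 31 and 23.0 in mouse 27 (87.8% and 14.9% of cells). Mice 34 and 33 held 0.919 and 0.482 CPM and the T clones of mice 30 and 32 held 1.29 and 2.63. The count was 0 in mouse 29, where 0 of 323 cells allows a share of up to 0.929%.

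Pax2, the kidney developmental regulator, had the sharpest pattern of the 9. The clone of mouse 33 held 3988 UMIs, 240.1 CPM in 82.7% of its cells. The T clones together held 6 UMIs and the other 4 B clones 2. Its count was 0 in mice 29 and 31, 1 UMI each in mice 27 and 34 (0.0550 and 0.0575 CPM), and 0.369 and 0.144 CPM in the T clones. In mouse 31 a count of 0 in 3974 cells allows a share of up to 0.0755%.

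Cobl, an actin nucleator that shapes neuronal dendrites and epithelial protrusions, stood at 230.8 CPM in mouse 33 (72.3% of cells). Mice 34 and 31 held 33.9 and 8.48 CPM (21.3% and 8.03% of cells), and mice 29 and 27 held 1.54 and 0.220. It was the 1 gene of the set at a high level in a T clone, at 160.2 CPM in 27.9% of the cells of mouse 30. In the T clone of mouse 32 it was at 3.21 CPM.

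Lmo7, a LIM-domain protein of cell junctions, was the 1 gene present in every B clone. Its level was 1284, 387.6, 334.9, 160.7 and 62.7 CPM in mice 31, 29, 27, 34 and 33, with 37.3% (mouse 33) to 99.2% (mouse 31) of cells holding a UMI. Both T clones were near 0, at 2.03 CPM (mouse 30) and 0.433 (mouse 32). The intervals of neighbouring clones in this order did not overlap, but each is 1 library.

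Shares depend on depth, so each cell was also thinned to 3000 UMIs, leaving out 19, 1, 54, 16 and 6 shallower cells in mice 27, 29, 31, 33 and 34. At that depth mouse 31 still held Lmo7 in 94.7%, Dmd in 87.0% and Syt1 in 58.9% of cells, and mouse 33 held Pax2 in 47.9% and Cobl in 39.7%. Lmo7 in mouse 33 went from 37.3% to 13.8%. Syt1 of mouse 33 (4.91%), Mybpc1 of mouse 27 (6.29%), Dmd of mouse 29 (4.60%), and Dab1 and Cobl of mouse 34 (4.17% and 7.94%) were then below 10%. In the T clone of mouse 30, Cobl was in 36.7% of the 428 cells deep enough to be thinned. Syt1 was in 9.96% of these 428 cells, above its thinned share in mouse 33, and in 6.93% of all cells of that T clone.

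In mouse 31 the 7 genes were often found in the same cells. With each of them in 76.6% to 99.2% of cells, much of this overlap follows from the single shares. No expected overlap was computed. The median clone cell held all 7, 52.9% of cells held all 7 and 0 held none. Over the 3974 cells, Spearman's rho of CPM was 0.17 to 0.43 for the 15 pairs without Dab1, and −0.08 to 0.03 for the 6 pairs with Dab1. These correlations are across cells of 1 library and share its depth, so they carry no p-value. In mouse 34, 49.5% of Dab1-positive cells held Cobl against 17.0% of Dab1-negative cells.

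Cells with different junctions were compared within the clones of mice 33, 34 and 27, grouped by the translated junction. Shares differed beyond their intervals for some genes in mice 33 and 34 and for none in mouse 27. In mouse 33, among cells with 1 heavy junction, Syt1 was found in 8.31% of the 301 cells with the 42-base junction (exact binomial interval 5.45% to 12.0%) and in 25.6% of the 90 cells with the 39-base junction (16.9% to 35.8%). Dlgap1 differed likewise, at 4.32% and 27.8% (intervals 2.32% to 7.27% and 18.9% to 38.2%). Cobl went the other way, at 86.4% (82.0% to 90.0%) against 59.4% to 79.2% for its interval with the 39-base junction. Pax2 (86.7% and 92.2%), Lmo7 (40.9% and 42.2%) and Dab1 (11.3% and 12.2%) had overlapping intervals. Most cells of this clone, 672 of 1084, had a light chain but no heavy contig, and their Syt1 level was 36.1 CPM.

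In mouse 34, Cobl was found in 28.6% of the 727 cells with the leading junction, in 2.70% of the 185 cells with the second and in 4.88% of the 41 cells with the third. Dab1 was likewise most frequent with the leading junction, at 17.2% against 5.95% and 0% (0 of 41 cells, with an upper exact bound of 8.60%). Lmo7 was highest with the second junction, at 128.7, 279.2 and 45.9 CPM in the same order of junctions. Here 306 of the 1271 cells with a heavy contig (24.1%) held at least 2 junctions and were left out of this comparison. With those cells kept under the junction with the most contig UMIs, Cobl was in 12.2% of the 254 cells with the second junction (17.2 CPM, against 4.51 without them) and in 27.2% of the 964 with the leading one. Dab1 was then in 6.69% and 16.9%. In mouse 27 the 787 and 351 cells of the leading and second junctions had overlapping intervals for Dmd (62.3% and 63.0%), Mybpc1 (15.5% and 13.7%) and Lmo7 (86.8% and 82.1%). Cells of 1 library are not replicates, so no test was made of any of these differences.

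Outside the clones, the genes were followed through the other cells of each library. In mouse 31, 3344 B-like cells without a receptor call held levels near those of the clone, at 373.2 CPM for Syt1, 330.1 for Dab1, 1015 for Dmd and 1154 for Lmo7. The 41 B-like cells with another receptor held less, at 79.4 CPM for Dmd, 43.3 for Ralyl and 173.2 for Lmo7. The 881 T-like cells, of median depth 1716 UMIs, held 27.5 CPM (Dab1) to 134.4 CPM (Lmo7). In them the 7 genes stood at 8.10% to 13.8% of their clone level, and the 8 B cell markers at 6.82% to 13.4%. Thinned to 3000 UMIs, Syt1 was in 12.4% of the 86 T-like cells deep enough, against 58.9% of clone cells. The genes present in the clones of mice 29, 34 and 27 were compared likewise in the T-like cells there. They stood at 3.33% to 44.5%, 1.89% to 32.5% and 5.65% to 25.1% of their clone level. The B markers stood at 1.15% to 3.90%, 1.89% to 10.7% and 2.57% to 19.1%. The part of free RNA in these values was not tested.

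In mouse 33 the 27 B-like cells with another receptor held Pax2 at 231.2 CPM (74.1% of cells) and Cobl at 264.2 CPM (55.6%), against 240.1 and 230.8 in the clone. Whether these cells carry altered chains of the same clone was not tested, so they are not shown to be unrelated B cells. The same 27 cells held more Syt1 than the clone, at 78.4 CPM (Poisson interval 47.2 to 122.5) against 35.0, and less Lmo7, at 20.6 CPM (6.70 to 48.2) against 62.7. The 3933 B-like cells without a call held Pax2 at 273.0 CPM, Cobl at 301.3 and Lmo7 at 43.2. In the 3636 T-like cells Pax2 was at 25.3 CPM and Cobl at 42.6, which is 10.5% and 18.5% of the clone level against 7.54% to 15.1% for the B markers. In the other 6 libraries, B-like cells without a receptor call held Pax2 at 0 to 0.520 CPM.

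In mice 34 and 27 the B-like cells without a receptor call differed in level from the whole clone for several genes, and they were shallower. Their median depth was 5657 UMIs against 11279.5 in the clone of mouse 34, and 1549 against 9367 in that of mouse 27. The 2999 such cells of mouse 34 held Cobl at 95.6 CPM in 32.5% of cells, against 33.9 CPM and 21.3% in the clone. Dab1 was at 26.2 CPM in them against 15.3, and Lmo7 at 102.6 against 160.7. In mouse 27 the 6633 such cells held Mybpc1 at 43.9 CPM against 23.0, Dmd at 338.0 against 236.3 and Lmo7 at 358.3 against 334.9. The clone cells of mouse 27 were also split into 4 equal groups by depth. The shallowest group held Mybpc1 at 38.9 CPM, Dmd at 313.6 and Lmo7 at 348.1, and the deepest 13.8, 161.9 and 308.1. The part of depth in these differences was not tested.

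In mouse 27 the 237 macrophage or monocyte-like cells held Lmo7 in 14.3% and Mybpc1 in 4.22% of cells, against 85.8% and 14.9% of clone cells, at a median depth of 4223 UMIs. In mouse 29 the B-like cells without a call held Dmd at 46.7 CPM, against 23.9 in the clone. They held Ralyl at 298.6 CPM, against 221.9 in the clone, 86.3 in the 32 cells with another receptor and 50.2 in the T-like cells. Dmd was also found in fibroblast-like cells. In mouse 29 the 2967 fibroblast-like cells held 184.4 CPM of Dmd in 39.1% of cells, against 23.9 CPM and 13.0% in the clone, and in mouse 33 the 188 fibroblast-like cells held 153.4 CPM against 0.482. Dlgap1 was also found in endothelial-like cells of mouse 29, at 49.1 CPM. The 435 cells of mouse 29 that were given no class held Cobl at 162.0 CPM in 48.7% of cells, against 1.54 CPM in the clone, and Lmo7 at 394.3 CPM in 59.1%, against 387.6. The 75 cells without a class in mouse 30 held Cobl at 152.8 CPM, Lmo7 at 271.9 and Dab1 at 59.6, where its T clone held 160.2, 2.03 and 1.66. Both groups without a class came from the same cluster, which held 5 of 6 epithelial markers (Epcam, Krt8, Krt18, Krt19 and Cdh1). Its top genes included Scgb1a1, Sftpa1 and Sftpc. Markers and top genes were taken over the whole cluster, of which 77.6% of cells came from mouse 29 (lung). They were not read separately in the cells of mouse 30 (liver). In mouse 30, the 7218 T-like cells not assigned to the clone held Cobl at 123.7 CPM and Syt1 at 20.2, against 160.2 and 36.7 in its T clone. These cells were not split by receptor call. Only 2503 of the 10493 cells of this library had a call, and 2107 cells were in the clone. Clone cells without a call can thus not be told apart from other T cells among them. The 73 B-like cells of mouse 30 held Lmo7 at 136.8 CPM, where its T clone held 2.03.

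**Figure D2:**
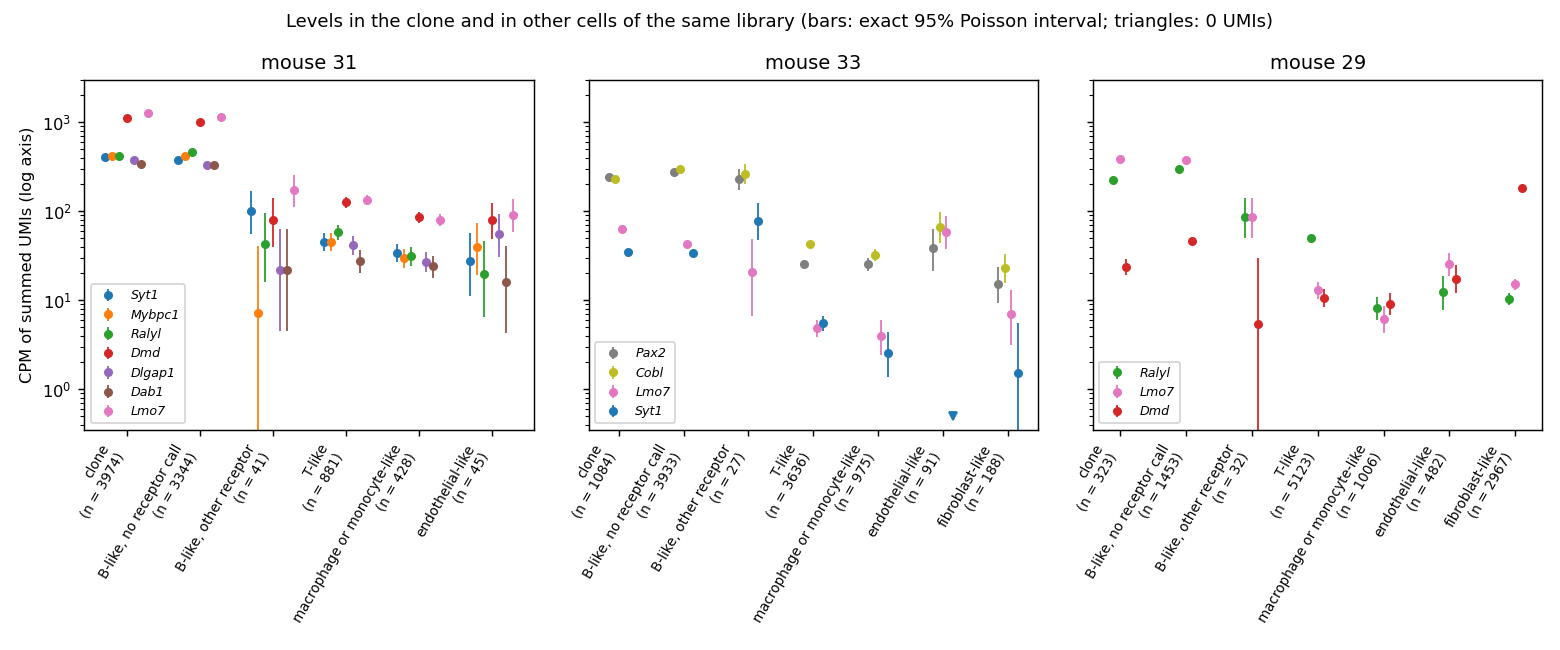
Level (CPM of summed UMIs, log axis) of the genes in mice 31, 33 and 29, with exact 95% Poisson intervals and a triangle for 0 UMIs. Groups are the clone and B-like, T-like, macrophage or monocyte-like, endothelial-like and (mice 33 and 29) fibroblast-like cells. Neutrophil-like and erythroid-like cells are not shown. B-like cells without a receptor call lie nearer the clone than T-like cells in mouse 31, and Dmd in mouse 29 is highest in fibroblast-like cells.

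Within the clones of mice 31 and 27 some of the genes rose with Malat1, an RNA retained in the nucleus, more than most genes did. Clone cells were split into 4 groups of equal size by the share of their UMIs in Malat1, and CPM was taken over the UMIs outside Malat1. In mouse 31, from the lowest to the highest group, Syt1 went from 196.6 to 778.4 CPM, Ralyl from 198.6 to 729.6 and Dmd from 620.0 to 1688. The ratios of 3.96, 3.67 and 2.72 lay at percentiles 99.4, 99.1 and 97.5 of the 5727 genes at 20 CPM or more. Mybpc1 (1.98) and Dlgap1 (1.88) lay under the 95th percentile of 2.23. Lmo7 (1.30) and Dab1 (0.923) lay nearer the median ratio over all genes of 0.995. In mouse 27 Mybpc1 went from 9.42 to 56.7 CPM (ratio 6.02) and Dmd from 113.8 to 409.8 CPM (ratio 3.60). In mouse 33 the ratios were 2.04 for Pax2 and 1.58 for Cobl, inside the 95th percentile of 2.62. None of the genes present passed it in mouse 29 (Ralyl 1.92, Dmd 1.90 and Lmo7 0.787, against 2.24). The same held in mouse 34 (Lmo7 1.35, Cobl 1.02 and Dab1 0.787, against 1.88). Median depth was 14012 UMIs in the lowest and 8689 in the highest group of mouse 31, and the part of depth was not tested.

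**Figure D3:**
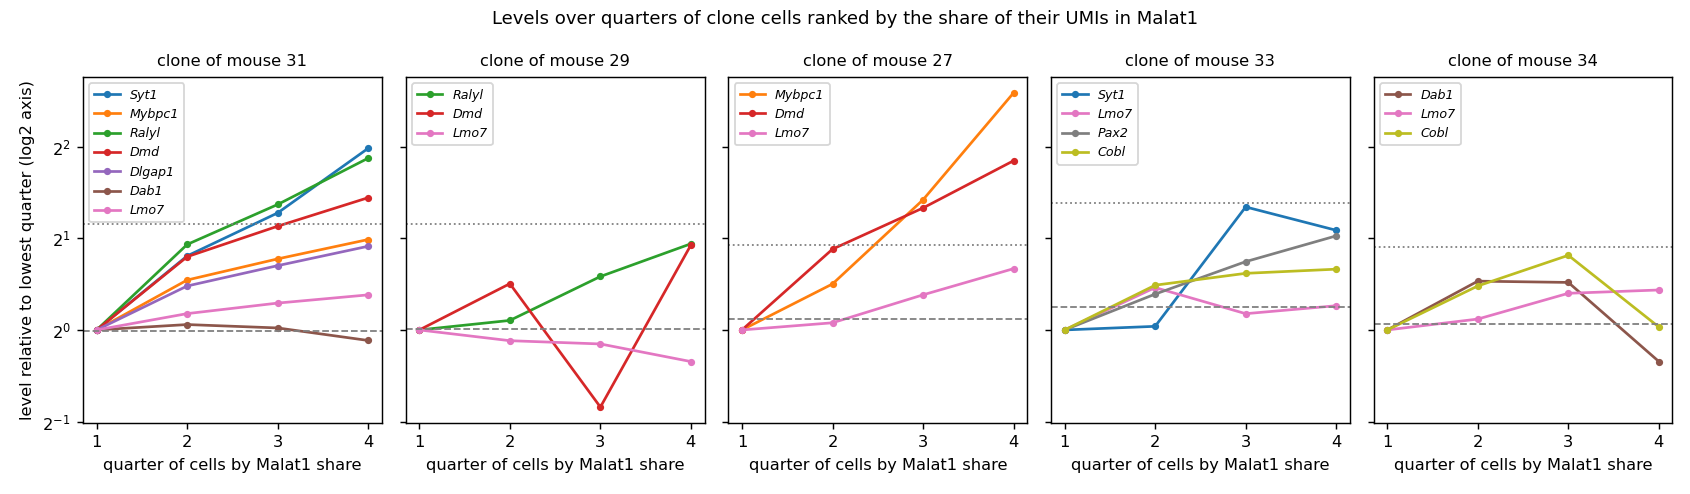
Level of each gene relative to the lowest group (vertical axis, ratio) over 4 equal groups of clone cells ordered by the Malat1 share of their UMIs, per B clone. The dashed line is the median ratio over all genes at 20 CPM or more and the dotted line the 95th percentile. Syt1, Ralyl and Dmd end above the dotted line in mouse 31 and Mybpc1 and Dmd in mouse 27, while Dab1 in mouse 31 ends at 0.923.

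The same was seen between clusters. In mouse 31, 1793 cells of low Malat1 (762.6 CPM) held Syt1 at 101.6 CPM and Ralyl at 79.6, but Dab1 at 393.6. The main cluster of 4720 cells (Malat1 9387 CPM) held 481.3, 518.4 and 334.9 CPM of these genes. A cluster of 2596 shallow cells with a median of 1318 UMIs and Malat1 at 24172 CPM, left unnamed although it carried B markers, held Syt1 at 872.2 CPM and Dlgap1 at 1030 but Dab1 at 160.0. Clusters were made from expression, so these are descriptions.

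Whether the genes vary with proliferation was asked within the clones, a contrast the choice of genes did not use. Clone cells with at least 3000 UMIs were called cycling if they held 2 or more UMIs of 10 proliferation genes after thinning, which gave 20.2% (mouse 29) to 61.4% (mouse 27) of cells. UMIs were summed per mouse and state and tested with edgeR's quasi-likelihood method with the mouse as a block (10 sums, 5 mice). Of the 11356 genes tested, 1511 (13.3%) were higher and 1660 (14.6%) lower in cycling cells at an adjusted p under 0.05. The filter kept 6 of the 9 genes, of which Dmd and Dlgap1 were lower and 0 were higher.

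Dmd was at 897.0 CPM in cycling and 1309 in other cells of mouse 31, and at 207.6 and 290.4 in those of mouse 27. Mouse 29 held 29.97 and 21.7 CPM, mouse 34 held 3.48 and 6.97, and mouse 33 held 0.516 and 0.453. It was lower in cycling cells in both clones where it was abundant and in mouse 34. The edgeR log2 fold change was −0.45 (SE 0.11, adjusted p = 0.010), and without mouse 31 the adjusted p was 0.0909. Dlgap1 was at 348.8 and 408.5 CPM in mouse 31. The pairs were 13.7 and 20.8 for mouse 33, 1.97 and 4.15 for mouse 34, 4.04 and 4.48 for mouse 27, and 4.83 and 2.79 for mouse 29. It was lower in 4 of 5 mice, with an edgeR log2 fold change of −0.36 (SE 0.13, adjusted p = 0.0441), and the call was lost without mouse 31, 33 or 34 (adjusted p 0.0966, 0.256 and 0.103).

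Syt1 missed the threshold in this edgeR fit (log2 fold change −0.38, SE 0.20, adjusted p = 0.190), although in mouse 31 it was at 308.8 CPM in cycling and 500.9 in other cells. In mouse 33 the values were 35.1 and 34.8. Dab1 (−0.03, SE 0.11, adjusted p = 0.861), Lmo7 (−0.07, SE 0.07, adjusted p = 0.493) and Cobl (−0.10, SE 0.12, adjusted p = 0.583) also missed it in edgeR. The direction for Syt1 was not stable, as DESeq2 gave a log2 fold change of 0.61 (SE 1.02, adjusted p = 0.719). In mouse 29 all 4 UMIs of Syt1 lay in 1 cycling cell (3.87 CPM against 0). Mice 27 and 34 held at most 1 UMI of Syt1 per sum. Without mouse 29 Syt1 passed in edgeR as lower (log2 fold change −0.42, adjusted p = 0.0469). The Syt1 values thus rest on mice 31 and 33 and on that cell, and none is counted as a call. With no filter on low counts all 9 were tested. Ralyl, which the filter had removed, then had an edgeR log2 fold change of −0.53 (adjusted p = 5.61e-05), at 304.7 CPM in cycling and 523.2 in other cells of mouse 31 and at 191.4 and 233.0 in those of mouse 29. Mice 27, 33 and 34 held at most 3 UMIs of Ralyl per sum, so this value rests on the 2 clones for which Ralyl was chosen and is not counted as a call. In the unfiltered edgeR fit Syt1 passed as lower (adjusted p = 0.0202), and Mybpc1 (adjusted p = 0.179) and Pax2 (adjusted p = 0.283) did not. Pax2 was at 215.0 CPM in cycling and 262.1 in other cells of mouse 33.

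Malat1 itself was lower in cycling cells of all 5 mice (edgeR log2 fold change −0.45, SE 0.06, adjusted p = 0.000576), and cycling cells were deeper in every clone, for example 13754 against 10140 UMIs at the median in mouse 31. The part of either in the values of Dmd and Dlgap1 was not tested.

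**Figure D4:**
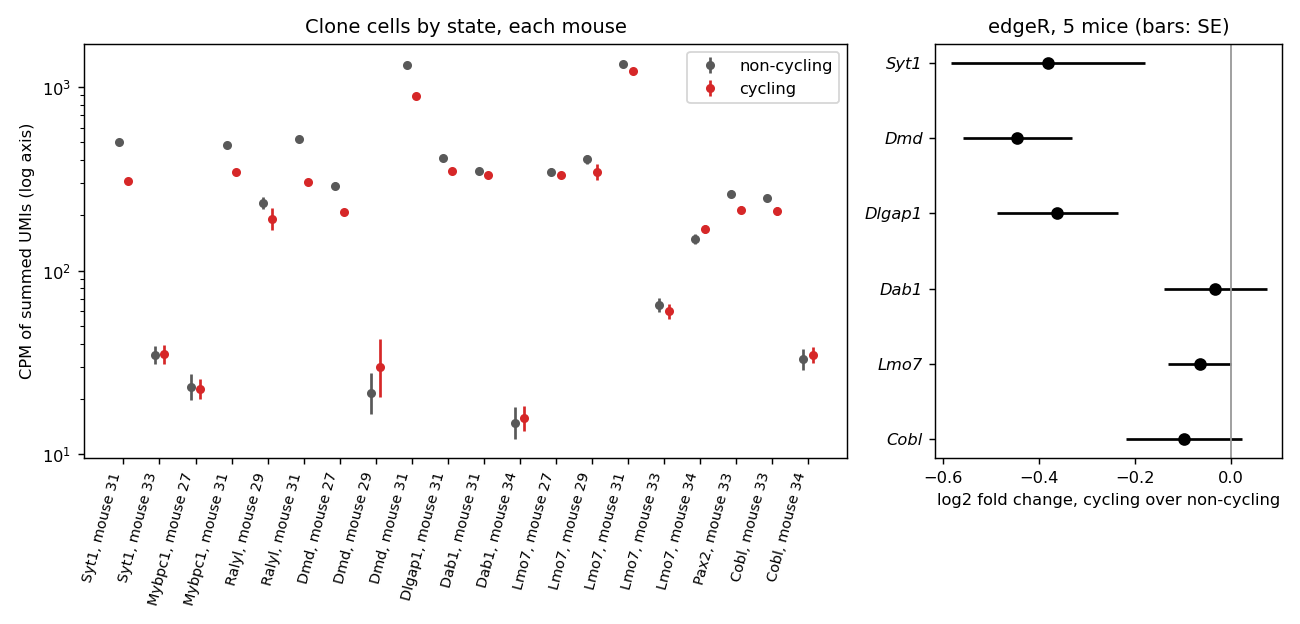
Left, level (CPM, log axis) of each gene in cycling (red) and non-cycling (grey) clone cells of each mouse where it was present, with exact 95% Poisson intervals. Right, edgeR log2 fold change (cycling over non-cycling, with SE) of the 6 genes that passed the filter on low counts. Dmd at −0.45 and Dlgap1 at −0.36 pass an adjusted p of 0.05.

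The companions of these genes in their usual tissues were counted by their presence in any of the 5 B clones. Over all genes, 37.7% were present in at least 1 of them. Of 12 neuron markers, 2 (Tubb3 and Map2, both cytoskeletal) were present in at least 10% of cells of a B clone, and the neurofilament gene Nefl was at 0 in all 5. Of 12 skeletal muscle markers, 3 were present (Mylpf, Tnnt3 and Ttn), while Myod1, Myog, Myh1 and Myh4 were at 0. None of 12 kidney and urogenital markers passed, Umod and Aqp2 were at 0, and of the 8 other Pax genes Pax5 alone was present.

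Lists of partners of single genes lay on both sides of that 37.7%. Of 14 other members of the dystrophin complex 4 were present, the broadly expressed relative Utrn among them. Of 24 other vesicle fusion genes 6 were present, of 14 other postsynaptic scaffold genes 5, and of 16 other sarcomere genes 4. More were present of the reelin pathway (7 of 12), of the actin nucleators and LIM scaffolds (7 of 15) and of the RALY family (2 of 2). Cplx2, which clamps the fusion machinery, was highest in mouse 29 (30.5 CPM) and at 0 in mouse 31, where Syt1 was highest. Reln, the ligand upstream of Dab1, was at 115.9, 75.5 and 54.3 CPM in mice 29, 34 and 27, and at 1.77 in mouse 31, where Dab1 was highest. Mouse 34, the second highest clone for Reln, was also the second highest for Dab1 (15.3 CPM). Titin (Ttn), which Mybpc1 binds in the sarcomere, was at 720.6 CPM in mouse 31 but also at 237.7 in the T clone of mouse 30.

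In the cycling contrast, some listed companions of the 9 genes also passed the test, beside the 13.3% higher and 14.6% lower over all genes. Of 8 other postsynaptic scaffold genes tested in edgeR, 4 were lower (Dlgap4, Shank1, Homer1 and Dlg1, log2 fold changes −0.59 to −0.23) and 0 higher, with a median of −0.37 against −0.06 over all genes. Utrn was lower (edgeR log2 fold change −0.62, SE 0.08, adjusted p = 6.5e-05), alone among 6 of the dystrophin complex. Single genes were lower in the vesicle fusion list (Vamp2, 1 of 8), the reelin list (Fyn, 1 of 9) and the Pax list (Pax5, 1 of 1), and 2 of 10 in the actin and LIM list (Lmo2 and Wasl). Mylpf (1 of 8 sarcomere genes) and Raly (1 of 2 in its family) were higher, and 0 of 3 neuron markers passed. Nothing is read from these counts of 1 or 2 genes, several of which lie near the shares over all genes.

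A stricter view asked which genes stood at least 10-fold above every other B clone and were in at least 10% of clone cells. In mouse 31 these were 71 genes (0.283% of 25095), among them Syt1, Mybpc1, Dlgap1 and Dab1, and in mouse 33 50 genes (0.199%), among them Pax2. In mice 27, 29 and 34 there were 17, 66 and 20 such genes (0.0677%, 0.263% and 0.0797%) and none of the 9.

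For each of the 9, the 3 genes with the most similar levels over the 7 clones were taken by Euclidean distance of log2(CPM + 1), which ran from 2.07 to 5.28 for these genes. For Pax2 they were 3830403N18Rik (65.4 CPM in mouse 33), Gm15056 and Tlr7, an RNA sensor (50.2 CPM in mouse 33 and at most 2.31 elsewhere). For Ralyl they were the calcium channel gene Ryr2 (113.5 CPM in mouse 31 and 59.8 in mouse 29), Rbm24 and Igkv3-5. For Lmo7 they were the B cell genes Iglc3, Pou2af1 and Vpreb3, for Mybpc1 Gm16150, Klrb1c and Fhod3, and for Dmd they included Mylk and Pfn2. Dlgap1 had Pole2, Frmd5 and Smad1, and Dab1 had Emp2, Gm2788 and Med12l. Syt1 had Frmd5, Gm17276 and Zbtb10 at distances of 4.75 to 5.28, and its pattern was matched only loosely, since Gm17276 was highest in mouse 33 (22.7 CPM) and Zbtb10 in the T clone of mouse 30 (31.5 CPM). Cobl had Tmtc2, St8sia6 and Catspere2, of which St8sia6 was higher in mouse 34 (94.3 CPM) than in mouse 33 (56.2 CPM).

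On the GRCm38 assembly the 9 genes lie on 8 chromosomes and are long. Dmd spans chrX:82814664-85205050, Dab1 chr4:103619500-104744844, Dlgap1 chr17:69969073-70821413, Ralyl chr3:13471655-14182287 and Syt1 chr10:108497650-109010980. Cobl spans chr11:12236676-12465022, Lmo7 chr14:101729928-101934708, Pax2 chr19:44746601-44838269 and Mybpc1 chr10:88518279-88605229. Their median span was 513.3 kb against 17.2 kb over 21887 coding genes, and 7 of 9 lay above the 95th percentile. Genes present in at least 1 B clone had a median of 25.2 kb. Genes passing the stricter rule had medians of 56.5, 48.7, 35.2, 20.8 and 17.7 kb in mice 31, 33, 34, 29 and 27.

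The stricter rule, which 0.283% of all genes passed in mouse 31 and 0.199% in mouse 33, was also applied to chromosome neighbours. Of the 5 counted genes on either side of each gene, 90 in all, 1 passed it in the clone where its neighbour was highest. This was Gm35610, 3.89 kb from Pax2, at 30.8 CPM in mouse 33 and at most 0.0206 in any other B clone. Reads of close or overlapping genes may have been assigned to either, and the strand used in counting is not given in the sources used here. Grb10, next to Cobl, was at 15.6 CPM in mouse 33 and at most 2.82 in the others. Gm2464, which overlaps Ralyl, was at 15.6 CPM in mouse 31 and at most 2.57 in the other B clones. Gm36594, 45.1 kb from Dlgap1, was at 3.03 CPM in mouse 31 and at most 0.220 in the others, but in 2.87% of cells. Near Syt1, Otogl and Gm5136 were at 0.803 and 0.412 CPM in mouse 31 and at 0 in the others.

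The 250 bases before each annotated start were read from RefSeq (GRCm38.p6), which gave 16 starts for 8 of the genes. Gene counts do not show which start is used. A search on both strands found the AP-1 motif TGANTCA at 1 member start (6.75% of all 32851 promoters hold it), the TATA motif TATAAA at 1 (12.4%) and the E-box CACGTG at 1 (6.02%). The octamer ATGCAAAT (1.60%), the consensus NF-kB site (0.140%) and the CRE TGACGTCA (1.55%) were found at 0 of 16. CpG content ran from 0 to 40 dinucleotides per window against a median of 6. The Dmd and Dlgap1 windows are shown for their motifs, in capitals, the Dab1 window as the richest in CpG, and the Pax2 window because it lies between Pax2 and Gm35610.
Dmd, chrX:82948620-82948869, plus strand, with a TATA match and an AP-1 match: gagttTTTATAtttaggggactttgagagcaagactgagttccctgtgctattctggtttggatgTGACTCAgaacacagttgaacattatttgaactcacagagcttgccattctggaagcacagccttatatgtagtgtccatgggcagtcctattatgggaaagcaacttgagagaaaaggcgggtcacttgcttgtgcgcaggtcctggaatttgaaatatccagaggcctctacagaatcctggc
Dlgap1, chr17:70561497-70561746, plus strand, with an E-box: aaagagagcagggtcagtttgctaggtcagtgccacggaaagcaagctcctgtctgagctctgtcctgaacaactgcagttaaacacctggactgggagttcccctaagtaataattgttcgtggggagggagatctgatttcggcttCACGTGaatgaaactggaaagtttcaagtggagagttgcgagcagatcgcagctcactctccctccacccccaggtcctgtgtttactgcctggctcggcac
Dab1, chr4:104367288-104367537, plus strand, with no match: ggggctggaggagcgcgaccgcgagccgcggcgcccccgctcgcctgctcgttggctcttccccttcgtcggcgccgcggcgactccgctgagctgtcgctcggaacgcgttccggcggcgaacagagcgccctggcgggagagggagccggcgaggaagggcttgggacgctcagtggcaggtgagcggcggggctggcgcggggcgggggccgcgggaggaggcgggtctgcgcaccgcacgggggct
Pax2, chr19:44746351-44746600, plus strand, with no match: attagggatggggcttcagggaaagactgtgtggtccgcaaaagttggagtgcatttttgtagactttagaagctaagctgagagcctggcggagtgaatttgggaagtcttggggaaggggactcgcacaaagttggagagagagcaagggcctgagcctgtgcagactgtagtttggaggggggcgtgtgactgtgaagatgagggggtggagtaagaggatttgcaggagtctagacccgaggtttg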

How the data were processed

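Single-cell RNA and V(D)J libraries of 7 nodules were used. The authors deposited raw UMI counts per gene and cell, and read and UMI counts per assembled receptor contig (SeekSoulTools vdj, annotated with IMGT). The submitters' processing notes name GRCm38 and mm10. The aligner, the transcript end counted, and the handling of introns and strand are not given in the sources used here. The genes, lists and definitions were chosen with earlier results of these data known.

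Cells with at least 201 UMIs, 101 genes and at most 10% mitochondrial UMIs were kept, as in the study's methods. Clones were defined from the contigs. CPM was taken from UMIs summed over the cells of a group, with 95% exact Poisson intervals; shares have exact Clopper-Pearson intervals, and a count of 0 allows up to 3 counts. All libraries were clustered together without the 9 genes (scanpy 1.11.5, 2000 variable genes, 30 components, resolution 1), giving 28 clusters, of which 25 were called X-like from marker lists. The rule for a second class in a cluster was relaxed after the clusters were seen. No doublet caller was run, but clone cells with 2 UMIs of T cell or macrophage genes were left out as an alternative.

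Cycling cells were tested with edgeR 4.0.16 (R 4.3.3; filterByExpr, TMM, quasi-likelihood test, Benjamini-Hochberg adjustment), with DESeq2 1.42.0 as an alternative; the step was tested on simulated data. Both sums of a mouse come from 1 library, which pairs them, and their deviations correlated at 0.781 to 0.947 over 11356 genes. All 9 genes are named, as are genes of the lists that were present in 10% of cells of a B clone, passed the cycling test or were defining markers at 0, the 3 nearest genes, and chromosome neighbours. Alternatives covered the clone definition, cell filter, doublets, contig support, depth, share threshold, normalization, filter, block, cycling definition and each mouse left out; leaving out shared barcodes was chosen after seeing the data. Columns of clonotype frequency made by the authors defined 1 alternative only. A few genes that these rules select are not reported here.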

Additional observations from a re-analysis of the deposited data

Results flagged for a closer look

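Over the 5 B clones, 8 of the 9 genes had 1 clone lying far from the other 4, the gap to the nearest clone being over 0.71 of the whole range. Chance gives about 1 such group in 20, but these genes were picked for their levels in these clones, so the number of them is no evidence. In mouse 31 these were Syt1 at 409.6 CPM, Mybpc1 at 417.5, Dmd at 1113, Dlgap1 at 379.6, Dab1 at 339.2 and Lmo7 at 1284. In mouse 33 they were Pax2 at 240.1 CPM and Cobl at 230.8. Ralyl was the exception, with 2 clones high (419.3 CPM in mouse 31 and 221.9 in mouse 29).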

How the results depend on the processing

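Of the recomputed levels 100 stayed inside the 95% Poisson interval of the reported level and 5 did not, and of 72 recomputed numbers of B clones 59 were identical and 13 differed by 1 clone. With the authors' most frequent clonotype Cobl in mouse 33 was at 163.6 CPM and Dlgap1 was present in 2 clones, as it was at a share of at least 5%. With cells thinned to 3000 UMIs, Syt1, Mybpc1, Dab1 and Cobl were each present in 1 clone and Dmd in 2, and at a share of at least 20% Syt1, Mybpc1 and Dab1 were in 1 and Dmd in 2. At a share of at least 5% Dab1 and Cobl were in 3.

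In the cycling contrast, the fit with no replicate block for the mouse called 254 genes higher and 1 lower, and Dmd and Dlgap1 then had an edgeR adjusted p of 0.9998. Leaving out 1 mouse gave 793 (without mouse 33) to 1905 (without mouse 27) lower genes. DESeq2 called 1242 higher and 1424 lower, and gave Syt1 a log2 fold change of 0.61. With cycling set by the clone median without thinning, Dab1 was at 0.11 and Cobl at 0.081. Leaving out 1 mouse, Dab1 ran from −0.073 to 0.00053 and Cobl from −0.18 to 0.0033. Of 229 recomputed cycling values 169 kept direction and call, 49 lost the call, 2 gained one, 6 reversed and 3 counts moved. The causes were not tested. Genes of few UMIs and the 323 cells of mouse 29 limit what depth can show.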
